A study of Drosophila melanogaster and Drosophila simulans and Drosophila yakuba with 4 samples.

Results

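The D. pseudoobscura white prepupa library is 1 of 4 RNA-seq libraries of the study, with 1 library per species, the others being D. yakuba, D. simulans and D. melanogaster. All 15146 rows of its table were taken, of 60414 rows in the 4 tables, and they hold 15145 genes, since the values of FBgn0263818 stand in 2 rows, which were summed to 19.1. RNA came from whole animals at the white prepupa stage, with no treatment named. The sources used here do not state the strain, the age beyond the stage, the sexes or the number of animals. With 1 library there is no replicate, so the values below carry no SD and no test was made between genes, chromosomes or species. Positions are those of the deposited table, counted from 1, and the sources used here do not name its genome build. All genes are given by identifier and locus, because the file pairs no identifier with a name and 0 of the 15145 identifiers were in the D. melanogaster gene table. For the same reason the label whole animal could not be checked against tissue markers, and no role is given to any gene. For 2 of the other libraries the organism field conflicts with the title, D. yakuba standing where the title has D. melanogaster and the reverse. Their titles were used, and the labels of the D. pseudoobscura sample do not conflict. In a bulk library of whole animals, fewer cells of a type and less RNA per cell cannot be told apart.

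White prepupae are animals that have just stopped moving and formed the soft white puparium. At this point a pulse of the steroid hormone ecdysone ends larval life, the larval cuticle becomes the pupal case, the salivary glands have released glue that fixes the animal to its substrate, and the fat body holds stores made during feeding. In D. pseudoobscura the X chromosome has a left arm, XL, that corresponds to the X of D. melanogaster, and a right arm, XR, that corresponds to the autosome arm 3L of D. melanogaster and became X-linked by fusion. Chromosomes 2, 3 and 4 are autosomes. In Drosophila males the single X is transcribed at a raised rate by the dosage compensation complex.

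The unit is FPKM, the fragments of a gene per kilobase of its transcript, scaled by the mapped total, and Cufflinks gave each value a lower and an upper bound. The reads behind a value were solved from the upper bound, taken as the FPKM plus 2 times the FPKM over the square root of the reads, and are called implied reads. They came out whole within 0.05 reads for 97.6% of the genes that had under 300 reads, against 99.8% in D. simulans and D. yakuba and 69.3% in D. melanogaster, where they are less certain and 41.3% of the loci overlap another. Their total was 13159266, against 5811850 in D. yakuba, 9788964 in D. simulans and 12038283 in D. melanogaster, the largest of the 4 as solved. In D. melanogaster 91 rows did not have status OK and were counted with 0 reads. The full D. melanogaster total is therefore not known, and it may be the larger one. The median gene had 179.0 implied reads. For genes detected at FPKM 1 or more, the median distance from the FPKM to a bound was 11.3%. Solving the reads takes the bounds as counting error only, which is not secured where the reads did not come out whole. The bounds do not cover variation between animals or libraries. The status was OK for 15142 rows. The status was LOWDATA for FBgn0248154, FBgn0263679 and FBgn0246987, with values near 0, and FBgn0081276, with status FAIL, was listed at 51.3 with bounds of 0 and 68.1. No reads were solved for these 4 rows.

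Most genes of the library were expressed at a moderate level. The median FPKM was 9.64, the quartiles were 1.53 and 29.1, and the 99th percentile was 1159. Of the 15145 genes, 1434 stood at 0, 1817 between 0 and 1, 4436 from 1 to 10, 6155 from 10 to 100, 1126 from 100 to 1000 and 177 at 1000 or more. The largest of these classes was thus the one from 10 to 100. At FPKM 10 or more stood 49.2% of the genes, against 38.3% in D. yakuba, 43.3% in D. melanogaster and 48.9% in D. simulans. At 100 or more the order was another one, with 8.6% of the genes in D. pseudoobscura but 10.3% in D. yakuba, 10.7% in D. simulans and 9.28% in D. melanogaster. The highest single FPKM of all 4 libraries was in D. pseudoobscura, at 123309, while the highest in D. yakuba was 66804, in D. simulans 53275 and in D. melanogaster 25727. These libraries differ in depth and in annotation, and the differences were not tested.

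**Figure D1:**
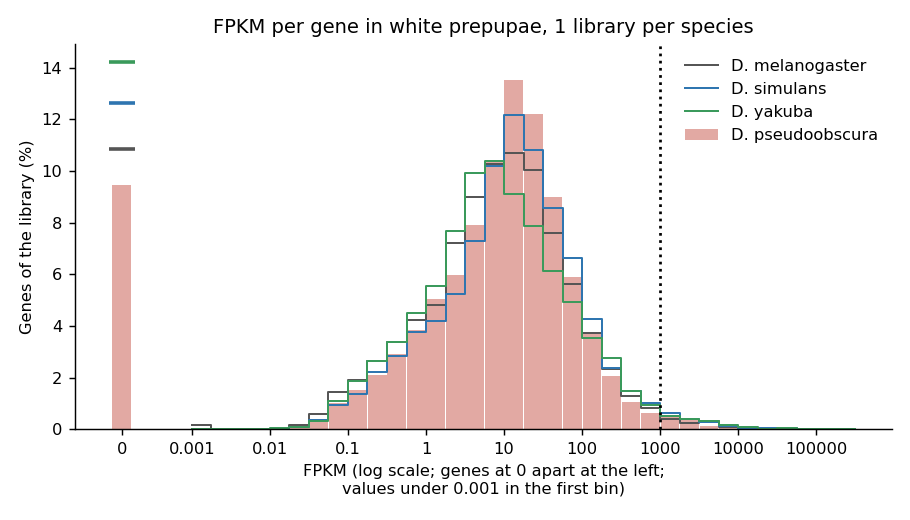
Share of genes by FPKM on a log scale, with bars for D. pseudoobscura and lines for the other 3 libraries, genes at 0 apart at the left and a dotted line at FPKM 1000. D. pseudoobscura has the lowest share at 0 (9.47%) and the tallest class just above FPKM 10.

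The genes at FPKM 1000 or more were few, shorter at the median than all genes, and took a large part of the reads. They were 177 of 15145 genes, or 1.17%, with 30.1% of the implied reads and 58.3% of the summed FPKM. Their median FPKM was 1940, with 92 genes below 2000, 58 from 2000 to 5000, 18 from 5000 to 10000 and 9 at 10000 or more. The 3 genes just inside the threshold stood at 1014, 1031 and 1031, and the 3 just outside at 998.98, 996.7 and 988.6. For 10 genes the bounds of Cufflinks held 1000, and 5 of these stood at 1000 or more. On chromosome 3 lay 49 of the 177, or 1.67% of its genes. Chromosome 4 had 38 (1.28%), XR 31 (1.06%), XL 27 (1.02%) and chromosome 2 had 32 (0.875%). Chromosome 3 thus lay above the 1.17% of all genes and chromosome 2 below it. The loci of these genes spanned a median of 750 bp, against 1424 bp for all genes, and 65 of them (36.7%) spanned under 500 bp, against 16.4% of all genes. Over 5000 bp spanned 10. Another listed locus overlapped 28 of the 177 (15.8%), against 9.43% of all genes, and their values may share reads.

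The 10 genes with the highest FPKM and the 10 with the most reads were largely different genes, with 2 in both. By FPKM the first was FBgn0074823 on chromosome 3 from 11533478 to 11533670, a locus of 193 bp, at 123309 (bounds 121668 and 124950). It was followed by FBgn0246204 on chromosome 3 at 39318, FBgn0263430 on chromosome 2 at 20275, FBgn0244891 on XR at 19486 and FBgn0263429 on chromosome 2 at 18423. FBgn0074469 on XR stood sixth at 15671. Then came FBgn0079848 on chromosome 4 at 13527, FBgn0080458 on chromosome 2 at 11546, FBgn0075583 on XL at 10750 and FBgn0080280 on XR at 9669. Of these 10 genes, 6 spanned between 191 and 207 bp. FBgn0074823 alone held 10.3% of the summed FPKM of the library, yet it rested on 22586 implied reads, or 0.172% of the reads, and ranked 36 by reads. FBgn0263429, with a span of 191 bp, rested on 2098 reads and FBgn0263430, with 192 bp, on 3017. Together the 10 genes held 23.6% of the summed FPKM and 8.10% of the reads.

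How many reads stood behind a unit of FPKM depended on the span of the locus. By the definition of FPKM the reads per FPKM are proportional to the transcript length that Cufflinks used. Per kb of locus, and over genes with 100 or more implied reads, a unit of FPKM stood for a median of 16.1 reads in 2510 loci from 2000 to under 5000 bp, for 13.5 in loci from 500 to under 1000 bp and for 8.77 in loci from 300 to under 500 bp. In 24 loci from 100 to under 200 bp it stood for 2.26. For FBgn0074823 the value was 0.949 and for FBgn0246204 it was 0.689. In D. simulans, too, the value was lower at short loci, with 10.3 reads from 2000 to under 5000 bp and 1.79 from 100 to under 200 bp, and in D. yakuba it was 7.51 and 1.19. Loci over 5000 bp had a lower median again, at 5.28, and the introns within loci were not counted apart, since exons are not listed. FPKM values at loci of about 200 bp or less thus rest on few reads for their size. The lowest number of reads behind an FPKM of 1000 or more was 95, at FBgn0254964 on XR_group6, a locus of 62 bp listed at 7316 (bounds 5815 and 8818). FBgn0263676 on chromosome 2, with a span of 99 bp, was listed at 6051 on 414.0 reads. By implied reads per kb of locus, a ranking chosen after seeing the data, FBgn0074469 came first and FBgn0074823 was at rank 5, FBgn0246204 at rank 34, FBgn0263430 at 82 and FBgn0263429 at 124.

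**Figure D2:**
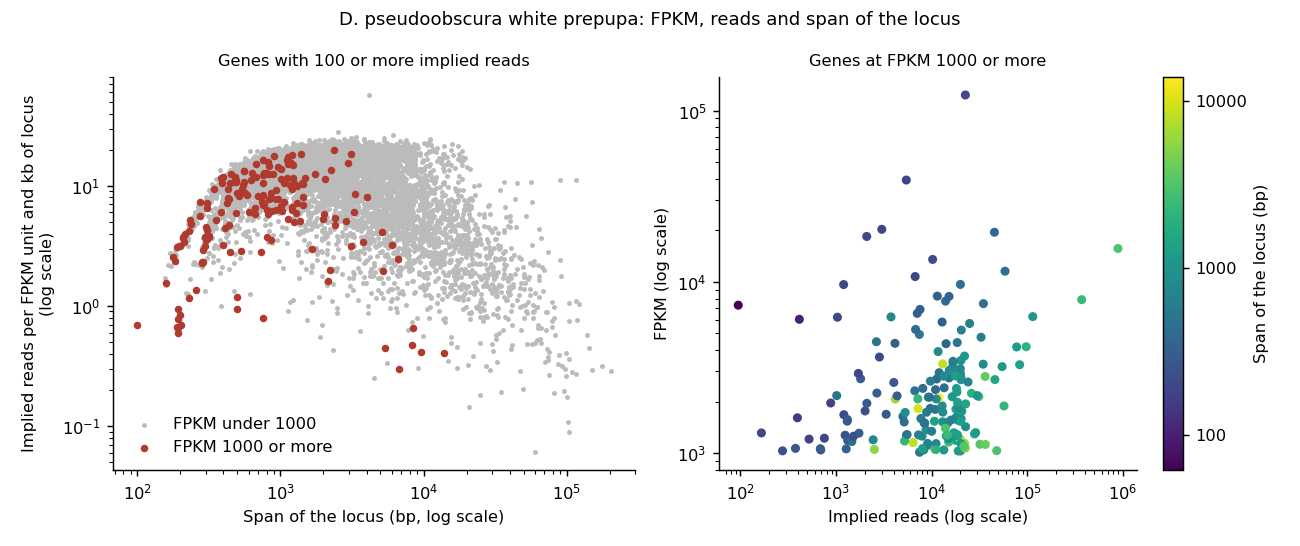
Left, implied reads per FPKM unit and kb of locus against the span of the locus for genes with 100 or more implied reads, both on log scales. Right, FPKM against implied reads for the 177 genes at FPKM 1000 or more, shaded by span: the gene at 123309 rests on 22586 reads, and the gene with the most reads, 891238, stands at 15671.

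The gene with the largest share of reads was FBgn0074469 on XR_group6 from 4764078 to 4767168, a locus of 3091 bp that overlaps no other listed locus. It held 891238 implied reads, or 6.77% of the library. The 95% exact binomial interval was 6.76 to 6.79, for counting error only and without the rounding of the listed bounds. The FPKM of FBgn0074469 was 15671 (bounds 15638 and 15705). Its reads were 2.39 times those of the next gene, FBgn0249445 on 4_group5 from 1059797 to 1062182. That gene held 372293 reads or 2.83% (2.82 to 2.84) at an FPKM of 7877. The neighbors of FBgn0249445 on both sides stood at 0. The left one, FBgn0254738, spans 72 bp, and 111 of 112 loci of that span stood at 0. The right one, FBgn0254739, lies 47780 bp away. The 9680 genes with the fewest reads, 63.9% of all genes, together only reached the reads of FBgn0074469. Both neighbors stood below FPKM 1000. On its left FBgn0080814 ended 9328 bp away and stood at 204.5, and on its right FBgn0080276 began 7022 bp away and stood at 2.44. The gene made up 27.8% of all reads on XR. Behind these 2 genes the shares were below 1%: FBgn0080686 on XR_group6 held 0.870%, FBgn0078019 on 4_group1 0.742%, FBgn0080940 on chromosome 3 0.634% and FBgn0080670 on XR_group6 0.589%. The next 4 were FBgn0080458 on chromosome 2 with 0.446%, FBgn0075153 on chromosome 2 with 0.435%, FBgn0077895 on XL_group1e with 0.416% and FBgn0249426 on 4_group5 with 0.365%. All 10 stood at FPKM 1000 or more, and they spanned 471 to 3091 bp, so none was among the very short loci.

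Counted as the genes that hold 50% of the reads, this library was spread more widely than the other 3, with or without FBgn0074469. The 10 genes with the most reads held 14.1% of the reads, and when FBgn0074469 was left out the 10 that then came first held 8.24% of what remained. The 100 genes with the most reads held 29.0%, or 24% without it, and 50% of the reads lay in 506 genes, or 622 without it. A single gene with a share of this size was also found in D. simulans, where FBgn0184358, with a locus of 3147 bp and an FPKM of 16423, held 7.36% of the reads. In D. yakuba the largest share was 2.71% and in D. melanogaster 1.35%. With all genes counted, the top 10 held 13.1% in D. yakuba, 15.7% in D. simulans and 9.58% in D. melanogaster. By that measure D. pseudoobscura was not the most even. Without each top gene, the 8.24% of this library lay below 11.3% in D. yakuba, 9.55% in D. simulans and 8.92% in D. melanogaster. Over all genes 50% of the reads lay in 302 genes in D. yakuba, 313 in D. simulans and 380 in D. melanogaster, fewer than 506. Without the top gene of each library the numbers were 331, 404 and 395, fewer than the 622 in D. pseudoobscura. The D. melanogaster values by reads leave out 91 rows without status OK. By summed FPKM the order was another one, with 50% in 100 genes in D. pseudoobscura, 62 in D. yakuba, 87 in D. simulans and 134 in D. melanogaster. The measure of reads weights long transcripts and that of FPKM the short loci described above. Leaving out FBgn0074469 multiplies the share of every other gene by 1.07, and whether FBgn0074469 and FBgn0184358 correspond to each other was not analysed here.

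**Figure D3:**
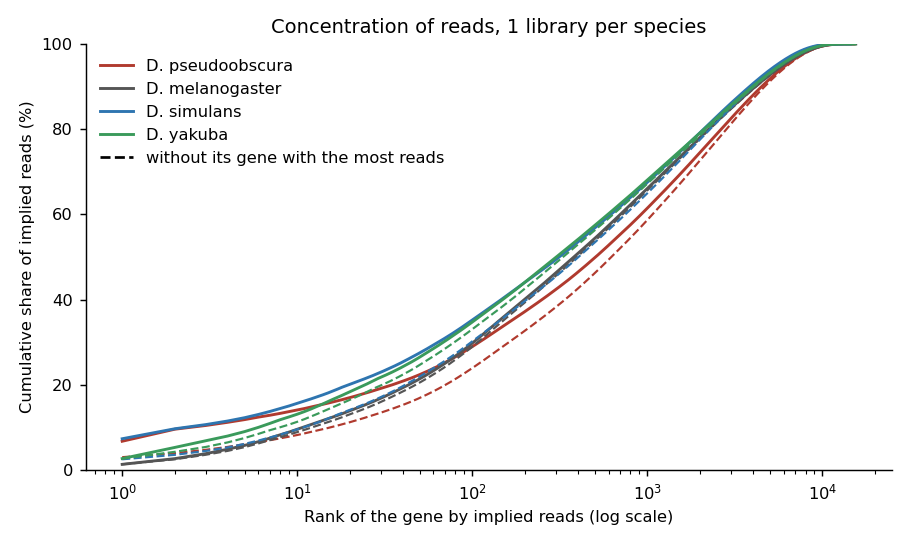
Cumulative share of implied reads against the rank of the gene by reads (log scale), with solid lines for all genes and dashed lines without the gene with the most reads of each library. The solid line of D. pseudoobscura starts at 6.77% and reaches 50% at 506 genes, and its dashed line reaches 50% at 622 genes, to the right of all other lines.

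Genes on both arms of the X were expressed at lower levels than those on the autosomes. The median FPKM was 7.66 over 2657 genes of XL and 8.46 over 2935 genes of XR. It was 10.3 over 3656 genes of chromosome 2, 11.1 over 2936 of chromosome 3 and 10.4 over 2961 of chromosome 4. The median of XL was 0.72 times that of the 3 autosomes together and that of XR 0.80 times. Among genes at FPKM 1 or more the medians were 12.5 on XL, 14.1 on XR and 16.4 on the autosomes, which gives 0.76 and 0.86. Detection differed little, with 77.3% of the XL genes, 77.6% of the XR genes and 79.1% of the autosomal genes at FPKM 1 or more. In the other 3 species the X lay at 0.61 to 0.64 times the median of 2L, 2R and 3R, while the arm 3L, the counterpart of XR, lay at 0.89 times in D. yakuba, 0.94 in D. simulans and 1.16 in D. melanogaster. The ratio of XR, at 0.80, was thus below those of 3L in all 3, and the ratio of XL, at 0.72, was above those of the X. Among genes at FPKM 1 or more the order was the same, with 0.61 to 0.66 for the X and 1.01 to 1.09 for 3L. Genes were not matched between species and these differences were not tested. Since the sexes of the animals are not stated, a lower level per X and a lower number of X chromosomes cannot be told apart.

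The shares of reads and of genes differed most on XL and XR. XL held 12.1% of the reads with 17.5% of the genes. XR held 24.3% of the reads with 19.4% of the genes, and 18.9% of the reads once FBgn0074469 was left out. Chromosome 2 held 22.8% of the reads with 24.1% of the genes, chromosome 3 19.9% with 19.4% and chromosome 4 20.8% with 19.6%. The surplus of reads on XR over its share of genes therefore goes with 1 gene. Among the sequences of more than 200 genes the median FPKM ran from 11.3 on 4_group3 to 4.67 on XL_group3a, which had 273 genes, 1 of them at FPKM 1000 or more.

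Genes at FPKM 0 were mainly short loci. They were 1434 of 15145 genes, or 9.47%, against 14.2% in D. yakuba, 12.6% in D. simulans and 10.9% in D. melanogaster, and each 0 allows up to 3 reads. Their median span was 371.5 bp, against 1560 bp for genes above 0. Of 371 loci under 100 bp, 336 (90.6%) stood at 0. The share was 47.8% from 100 to under 200 bp, 27.7% to under 300 bp, 17.4% to under 500 bp and 8.97% to under 1000 bp, and it was 2.53% for 5000 bp and more. Of the 255 loci that span 70 to 75 bp, 244 stood at 0. Of genes spanning 500 bp or more, 584 (4.61%) stood at 0. This share was 8.45% in D. yakuba, 7.51% in D. simulans and 6.07% in D. melanogaster. The order of the libraries by genes at 0 is the reverse of their order by implied reads as solved. The D. melanogaster total leaves out 91 rows without status OK, so its place in that order is not secured. A further 926 genes had 1 to 3 implied reads, so at this depth they cannot be told from genes at 0.

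By chromosome the share of genes at 0 was 10.8% on XL (286 genes), 9.64% on XR (283), 9.46% on chromosome 4 (280), 9.20% on chromosome 3 (270) and 8.62% on chromosome 2 (315), around the 9.47% of all genes. Among loci of 500 bp or more XL was again highest at 5.86%, chromosome 2 was at 4.96%, XR at 4.70%, chromosome 4 at 4.40% and chromosome 3 lowest at 3.17%. Chromosome 3 holds 125 of the 371 loci under 100 bp, and 115 of these stood at 0. Of the 5 groups, the 2 shares differed most on chromosome 3. XL exceeded chromosome 2 by 2.15 percentage points over all genes and by 0.899 over loci of 500 bp or more. On XL all 35 loci under 100 bp stood at 0, and on XR 57 of 70 did. Of the 35 such loci above 0 in the library, 13 lay on XR. Apart from FBgn0254964 with 95 reads, those on XR had 1 to 3 implied reads. At this depth none of these can singly be told from a locus at 0, and the difference between XL and XR was not tested. Among loci of 5000 bp or more, 2.53% stood at 0 in the whole library. The share was 5.53% on XL (23 of 416), 3.85% on chromosome 4 (17 of 442), 2.39% on XR (10 of 419), 0.885% on chromosome 2 (5 of 565) and 0.484% on chromosome 3 (2 of 413), so XL and chromosome 4 lay above the share of the library. The longest locus at 0 was FBgn0249617 on XR_group8, a locus of 141496 bp that overlaps another listed locus, followed by FBgn0245185 on XR_group6 with 88612 bp, which overlaps none. Of the 15 sequences, the highest shares at 0 were 14.2% of 233 genes on 4_group5 and 13.9% of 273 genes on XL_group3a. The lowest was 2.63%, which is 1 of 38 genes on XL_group3b.

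**Figure D4:**
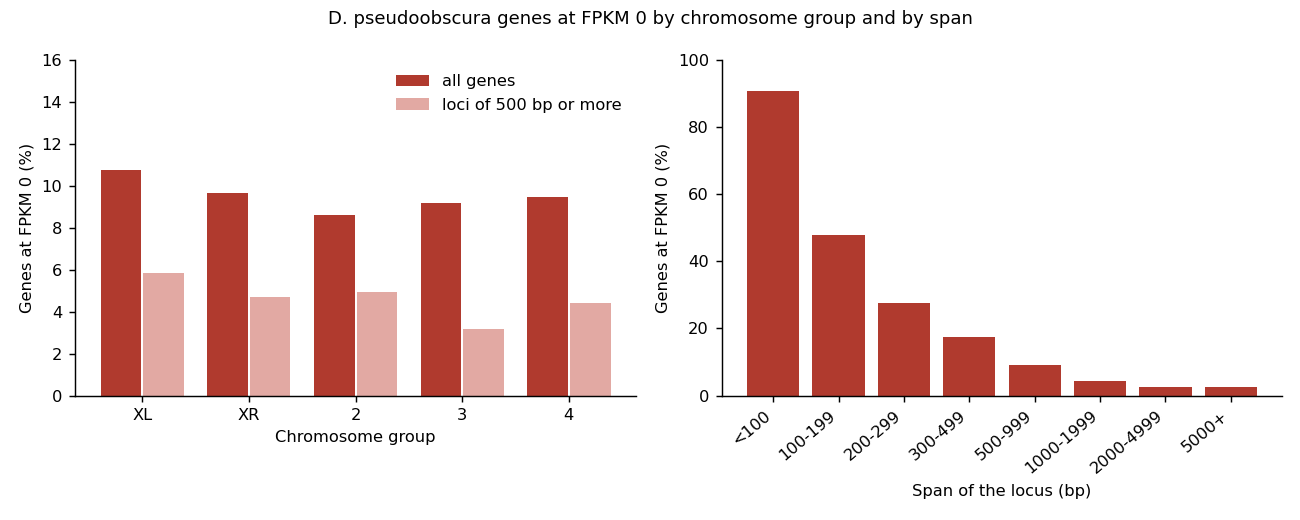
Share of genes at FPKM 0 by chromosome group (left, for all genes and for loci of 500 bp or more) and by span of the locus (right). The groups lie between 8.62% and 10.8% for all genes, while by span the share goes from 90.6% under 100 bp to 2.53% at 5000 bp and more.

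Genes at 0 often lay side by side. After a gene at 0 the next gene on the same sequence stood at 0 in 34.8% of cases, against 9.47% of all genes. Runs of 3 or more neighbors at 0 numbered 100 and held 427 of the 1434 genes. In 40 of these runs the median span was under 100 bp. The longest run had 30 genes on chromosome 3 from 17964311 to 17994954, and 26 of its loci spanned 70 to 75 bp. The next had 13 loci of 133 to 135 bp on 4_group4 from 2665826 to 2669194, all inside the locus of FBgn0070720, which itself stood at 158.9. A run of 8 loci of 136 to 148 bp on chromosome 2 from 3611709 to 3613208 likewise lay inside FBgn0248169, at 119.2. Runs of 11 and of 10 genes lay on chromosome 2 between 23708271 and 23755014, again with mostly loci of 70 to 75 bp. Another run of 10, on chromosome 3 from 16624680 to 16643551, held no locus of 70 to 75 bp and had a median span of 370.0 bp. What these short loci encode is not named in the files. Reads that map to more than 1 place cannot be assigned with certainty among near-identical copies, the sources used here do not state how they were treated, and their part in these runs was not tested.

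High genes also lay next to each other, in short runs. At FPKM 100 or more stood 1303 genes (8.6%), and the next gene on the same sequence was also at 100 or more in 15.3% of cases. At 1000 or more, where all genes make up 1.17%, the next gene was also at 1000 or more in 8.47% of cases (15 of 177). Runs of 3 or more genes at FPKM 100 or more numbered 33 and held 107 genes, with 26 runs of 3, 6 of 4 and 1 of 5. A further 250 genes lay in runs of 2. Chromosome 3 had 12 of the 33 runs, chromosome 2 had 6, and chromosome 4, XL and XR had 5 each. Of the 1303 genes at 100 or more, chromosome 3 had 305, or 10.4% of its genes, and chromosome 2 had 313 (8.56%). Chromosome 4 had 266 (8.98%), XL 187 (7.04%) and XR 232 (7.90%). Some runs of 3 depend on very short loci with few reads. FBgn0254963 on XR_group6 spans 79 bp and had 3 reads, with bounds of 0 and 262. FBgn0254924, in the middle of a run on chromosome 3, spans 71 bp and had 12 reads. Overlapping loci stood in 3 of the 33 runs. The run of 3 on chromosome 2 from 28575588 to 28578761 is 1 locus of 3174 bp with loci of 83 and 87 bp inside it, so its 3 values need not be separate. The other libraries had 39 such runs in D. yakuba, 61 in D. simulans and 34 in D. melanogaster. Without overlapping loci the number was 31 in D. pseudoobscura, 35 in D. yakuba, 56 in D. simulans and 24 in D. melanogaster, so the order of D. pseudoobscura and D. melanogaster turned. At FPKM 1000 or more D. pseudoobscura had 3 runs, D. yakuba 4, D. simulans 4 and D. melanogaster 2. The share of genes at 100 or more was 10.3% in D. yakuba, 10.7% in D. simulans and 9.28% in D. melanogaster. The part of these shares in the numbers of runs was not tested, and neither were the differences.

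The 3 runs at FPKM 1000 or more held 11 genes, 8 of them on chromosome 3. On chromosome 3 from 11532279 to 11536511 lay FBgn0073504 at 1828, FBgn0074823 at 123309, FBgn0246289 at 9652 and FBgn0246290 at 4381. These 4 loci span 192 to 491 bp and lie 708 to 1479 bp apart. They held 37625 reads or 0.286% of the library, and the genes on either side, FBgn0245670 at 15.4 and FBgn0246291 at 24.2, were far lower. Beyond FBgn0246291 follows a stretch that was singled out after its values were seen. Its 8 neighboring loci from FBgn0074567 to FBgn0074576 span 660 to 726 bp, and their FPKM ran from 0.380 to 408.7. FBgn0074573 at 408.7 lies next to FBgn0074576 at 1.87, and FBgn0074569 at 151.0 lies between FBgn0074568 at 0.455 and FBgn0074570 at 0.437, so neighbors of nearly the same span differed by far more than their bounds. FBgn0074568 and FBgn0074570 had 4 implied reads each.

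The second run lay on chromosome 3 from 7619623 to 7638772, with FBgn0078068 at 2107, FBgn0076544 at 3116, FBgn0076597 at 3047 and FBgn0077842 at 6246. The gene that follows, FBgn0246188 at 230.7, extends it to the single run of 5 at FPKM 100 or more. FBgn0076544 and FBgn0076597 had 20004 and 18228 reads. FBgn0077842, with a span of 753 bp close to theirs, had the highest FPKM of the run on the fewest reads of its 4 genes, at 3766, so the order of the run by FPKM and by reads differs.

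The third run held the most reads. On XR_group6 from 6916091 to 6920913 lay FBgn0080686 at 6273, FBgn0244891 at 19486 and FBgn0080670 at 4172, with 954 and 1178 bp between them. They held 237515 reads or 1.80% of the library, and all 3 were among the 20 genes with the most reads. The genes on either side stood at 18.0 and 17.1. On the same sequence further pairs at FPKM 1000 or more were FBgn0080267 at 7726 with FBgn0080465 at 8228, FBgn0080280 at 9669 with FBgn0245176 at 3441, and FBgn0254964 at 7316 with FBgn0080727 at 1537. In the last pair the first locus is the one of 62 bp with 95 reads, which lies 86 bp from its partner. The first pair continues through FBgn0245030 at 783.3 and FBgn0080284 at 1856, whose loci overlap, to a run of 4 at FPKM 100 or more. Of 7 pairs at FPKM 1000 or more, 4 lay on XR, and these 4 and the run of 3 held 11 of the 31 genes of XR at that level.

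**Figure D5:**
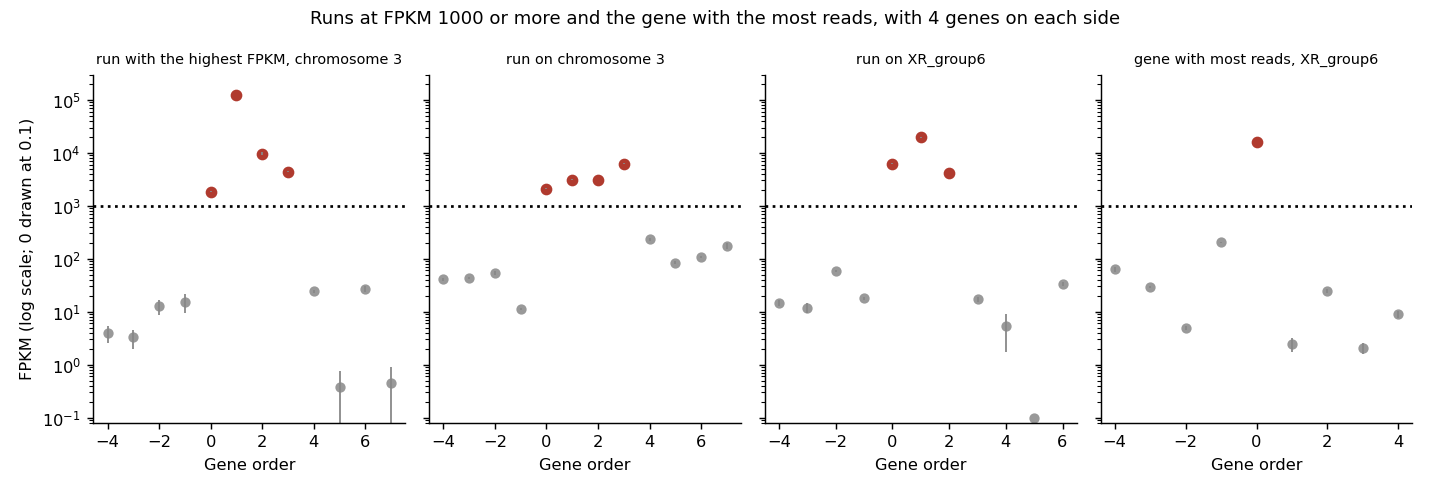
FPKM on a log scale by gene order for the 3 runs at FPKM 1000 or more and for the gene with the most reads (red), each with the 4 genes on either side (gray), bars giving the bounds of Cufflinks and the dotted line FPKM 1000. In each panel the red points stand above the line, up to 123309 in the first run, and the gray points stand at 230.7 or lower.

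Across all neighbors the levels were weakly alike. Over 15130 pairs of a gene and the next on the same sequence, log2(FPKM + 1) had a Pearson r of 0.27 and a Spearman rho of 0.29, given as a description, since the pairs share genes and 1 library. The other libraries had a Pearson r of 0.25 to 0.27. Over genes at FPKM 1 or more alone it was 0.14. That restriction also narrows the range of levels and changes which genes are neighbors, and the part of each was not tested. Neighbors both at FPKM 100 or more lay a median of 1086 bp apart, against 1486 bp for all neighbors.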

How the data were processed

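Single-end reads were trimmed and mapped with TopHat by the authors, who deposited FPKM per gene from Cufflinks with lower and upper bounds. Bowtie, SAMtools and the build dm3 are further named for each sample in the submitters' processing notes. The sources used here do not state tool versions, read strand or the D. pseudoobscura build. Loci are those of the table with 1 added to each start, since 1960 of 2860 D. melanogaster genes on 2L then start where the newer annotation has them, against 11 as listed.

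Members and tests were chosen with earlier results of these data known. Genes were ordered by start within a sequence, and a run is 3 or more consecutive genes past a threshold. Named were the 10 genes with the highest FPKM and the 10 with the most reads, the longest runs, runs at FPKM 1000 or more and rows whose status is not OK. Genes beyond this rule were chosen after their values were seen: the pairs at FPKM 1000 or more, flanking and enclosing genes, the loci under 100 bp, the longest genes at 0 and the stretch on chromosome 3. The gene lists planned for named genes were not used, since 0 of 15145 identifiers matched. The read arithmetic and the run search were tested on simulated data. Alternatives covered thresholds, status, overlap, span, the measure of share and the pseudocount. The ChIP-seq of the study was not used here. Versions were matplotlib 3.10.9, scipy 1.17.1, pandas 2.3.3, numpy 2.4.6 and Python 3.11.15.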

Additional observations from a re-analysis of the deposited data

How the results depend on the processing

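The settings that left out loci under 100 bp or ranked genes by reads per kb of locus were chosen after seeing the data. Genes at FPKM 1000 or more numbered 298 at a threshold of 500, 85 at 2000 and 112 among loci of 500 bp or more, against 177. By summed FPKM the largest share of 1 gene was 10.3%, the top 10 genes held 23.6% and 50% lay in 100 genes. These are other genes than by reads, 2 of the top 10 being shared. Without the gene with the most reads the top 10 held 8.24%. Genes at 0 numbered 2360 with 3 implied reads or fewer included and 584 among loci of 500 bp or more, against 1434. Runs of 3 or more high genes numbered 118 at a threshold of 50, 7 at 300 and 3 at 1000, and 60 when 1 lower gene was allowed inside, against 33. The Pearson r of neighbors was 0.31 with a pseudocount of 0.1 and 0.14 over genes at FPKM 1 or more. XL exceeded chromosome 2 in the share at 0 by 2.15 percentage points, and by 0.899 to 2.76 under the other settings. The X median was 0.76 times the autosomal one, 0.82 times over genes at FPKM 1 or more and 0.78 times without overlapping loci. Of the 10 genes with the highest FPKM, 6 left the first 10 when ranked by implied reads per kb of locus, down to rank 124. No paired analysis was possible because each species has 1 library. Depth limits the genes at 0, each of which allows 3 reads, and the bounds do not cover variation between animals or libraries.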
